A study of Mus musculus with 9 samples.

Results

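Mouse embryonic fibroblasts carrying any of 4 PREX2 constructs were compared with the same line carrying a control vector. The comparison used 6 of the 9 arrays of the series, chosen by their labels. The 4 PREX2 arrays held the full-length protein (PREX2 wt) or 1 of 3 truncations, K278*, E824* and Q1430*, named for the residue at which a stop codon ends the protein, from the shortest to the longest, and the 2 control arrays held GFP or LacZ. All 6 came from wild-type fibroblasts of E13.5 embryos that had immortalised spontaneously, and per the labels' protocols the PREX2 constructs were delivered by lentivirus. The labels do not give the promoter of the vectors, the number of lines or clones, or whether each array is a culture of its own, so the p-values measure only how these arrays vary, which may be technical. Each construct was measured on 1 array, so unlike constructs served as replicates of a group. The spread behind the p-values therefore also holds differences among the 4 PREX2 constructs and between GFP and LacZ. The number of arrays limits the precision. The other 3 arrays, from a Suv420h1-null line, were not part of the comparison.

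PREX2 is a guanine nucleotide exchange factor that loads the small GTPase Rac with GTP when it is engaged by phosphoinositides at the membrane and by G-protein beta-gamma subunits. The phosphoinositides that engage it are products of PI3K and also recruit the kinase AKT, which places it beside PI3K and AKT signalling. Truncating PREX2 mutations are known from melanoma, and a stop codon removes the part of the protein that follows it.

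No probe set passed the test for a difference between the PREX2 and control arrays (limma, Benjamini-Hochberg adjusted p under 0.05; 0 of 18650, 0%), against both controls or against LacZ alone. At an unadjusted p under 0.05, 482 probe sets (2.58%) differed from both controls together and 310 (1.66%) from LacZ alone. When the LacZ array was left out, so that GFP was the only control, 218 probe sets passed. Oas1a, an interferon-induced oligoadenylate synthetase whose product activates RNase L, had the smallest adjusted p against both controls, at 0.106 in limma. It was also the 1 tested probe set for which every PREX2 array lay at least 2-fold above both controls. With controls far below the minimum mean signal of 100, it entered the test only through the PREX2 arrays, where it was high, so a difference between the groups was a condition of its being tested. All fold values are on signal + 25, a scale that understates the change of dim probe sets.

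The RefSeq promoter of Oas1a (GRCm38.p6, chr5:120907476-120907775, minus strand, from 250 bases before to 50 after the gene's start) is shown because its transcript had the widest distance between the groups. The capitals mark 2 overlapping matches to a pair of GAAA words with any 2 bases between them, the core of the interferon-stimulated response element, from position -20 to -5 relative to the start.
Oas1a: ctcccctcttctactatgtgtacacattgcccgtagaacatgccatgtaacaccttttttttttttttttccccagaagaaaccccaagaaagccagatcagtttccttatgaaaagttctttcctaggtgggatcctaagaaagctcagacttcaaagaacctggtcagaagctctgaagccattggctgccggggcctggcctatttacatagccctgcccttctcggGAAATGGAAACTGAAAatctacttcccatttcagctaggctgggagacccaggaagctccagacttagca
The motif was searched on both strands and was present in 1131 of 32851 RefSeq promoter windows of that length (3.44%). The windows of H2-K1 and H2-D1, interferon-stimulated genes that also lay above both controls, had 0 matches. A match describes the letters of the window and does not show that it is a site in these cells. Only this exact pattern was searched, so 0 matches do not show that a window lacks the element.

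The Oas1a signal was 20.4 on the GFP array and 33.1 on the LacZ array. It was 183 with PREX2 wt, 221 with K278*, 206 with E824* and 185 with Q1430*. The 4 PREX2 arrays were close to each other, both controls were dim, and the groups did not overlap. The log2 change was 2.12 (SE 0.185, 4 against 2 arrays) against both controls and 1.94 (SE 0.21) against LacZ alone, with adjusted p-values of 0.106 and 0.289 in limma. Adjusted p in limma was 0.00528 when all 9 arrays entered the fit and 0.037 without the intensity trend. It was 0.514 without a minimum signal, 0.086 with quantile normalization, and 0.124 and 0.149 with offsets of 5 and 100. Adjusted p lay between 0.581 and 0.88 when any 1 PREX2 array was left out. With a minimum of 200 the probe set was not tested. Without the LacZ array the log2 change was 2.30. With offsets of 5 and 100 in place of 25 the log2 change was 2.71 and 1.24. Oas1a had 1 tested probe set, so no second probe set could be compared. On the 3 arrays of the null line the same probe set read between 1879 and 2076.

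The other oligoadenylate synthetase probe sets did not give a matching separation. Oas1b read 16.7 and 15.6 on the control arrays and between 8.81 and 67.8 on the PREX2 arrays. Oas2 read 52.0 and 55.5 on the controls and between 14.8 and 41.5 with PREX2, so its PREX2 arrays lay below. These and the remaining family members in the wild-type line were below the minimum mean signal of 100 and were not tested.

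Before the remaining genes, the position of the controls bears on every value. The controls differed from each other by a median absolute log2 difference of 0.30. From LacZ the PREX2 arrays differed by 0.13 (PREX2 wt), 0.20 (K278*), 0.15 (E824*) and 0.12 (Q1430*), and from GFP by 0.27, 0.20, 0.35 and 0.31 in the same order. PREX2 wt, E824* and Q1430* were thus nearer to LacZ than to GFP, while by this median K278* was as far from one as from the other. More than 2-fold from LacZ were 1266 probe sets on the GFP array, 246 with K278*, 80 with E824*, 60 with PREX2 wt and 48 with Q1430*. From GFP the counts were 478 with K278*, 1872 with E824*, 900 with PREX2 wt and 1486 with Q1430*. By these counts K278*, too, was nearer to LacZ. LacZ lay within the range of the PREX2 arrays at 69.4% of tested probe sets and GFP at 34.5%. At 1167 probe sets GFP was below and LacZ above all 4 PREX2 arrays, and at 946 the reverse held. Median signals of the 6 arrays were between 56.4 and 62.3. All 18 fibroblast markers were tested and 14 of them exceeded 1000 on every array. Of the other 7 marker lists, several lineage-defining genes were dim, with highest signals of 32.7 for Pecam1 (endothelium), 25.9 for Ptprc (blood cells), 49.6 for Myod1 (muscle), 15.0 for Sox2 (neural precursors) and 35.9 for Cdh1 (epithelium). Signals that stayed under 50 on every array were found for 4 of 11 endothelial, 5 of 10 macrophage, 4 of 10 muscle, 5 of 10 neural, 5 of 11 epithelial, 4 of 9 adipocyte and 4 of 8 chondrocyte and osteoblast markers. Other members of the same lists were bright: the epithelial genes Epcam (162 to 301) and Krt19 (209 to 374), the endothelial receptor Tek (55.0 to 488.5), the macrophage genes Lyz2 (184 to 993) and Cd14 (443 to 652), the muscle actin Acta1 (247 to 579), the neural genes Map2 (762 to 1837) and Vip (888 to 4959.6), the adipocyte gene Lpl (2302.5 to 10729) and the chondrocyte factor Sox9 (540.0 to 689.8).

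Among the tested markers of those types, 1 of 3 macrophage genes, the receptor gene Csf1r, lay above both controls. It read 293.5 and 438 on the controls and 450.0 to 544 with PREX2. Csf1r had 3 tested probe sets, and not every one lay above. Below both controls lay 1 of 2 endothelial genes, Eng (188 and 224, against 121 to 169.8), and 1 of 4 neural genes, Nes. No other tested marker of those types lay outside both controls. Over all genes 4.30% lay above and 4.47% below. The summed signal of the macrophage markers was 1427 on GFP, 1840.0 on LacZ and between 1757 and 2287 with PREX2, that of the endothelial markers 716, 875 and 672 to 957, and that of the neural markers 6073, 4293 and 3156 to 4979. For each of the 8 lists the LacZ sum lay within the range of the PREX2 arrays. The part of these markers in the results was not tested.

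All 4 PREX2 arrays lay above both controls at 879 of 18650 probe sets (4.71%) and below both at 870 (4.66%). Of the 15 arrangements of 4 and 2 arrays, 1 places all 4 above and 1 all 4 below. Such counts therefore also arise where no difference exists, and both shares were below 1 in 15. Against LacZ alone, where fewer conditions are to be met, the counts were 2642 (14.2%) and 3060 (16.4%). With 1 probe set per gene, the brightest tested, 432 of 10036 genes (4.30%) lay above both controls and 449 (4.47%) below. Most of these distances were small. The median gap, defined as the log2 distance between the nearest PREX2 and control arrays, was 0.05 on either side. A gap of at least 1.2-fold was found at 39 probe sets above and 27 below. Leaving out LacZ gave 6363 above and 5811 below, and leaving out K278* 2227 and 2117. At 1.5-fold 4 probe sets remained above (0.0214%) and 0 below (0%). This split depended on the minimum signal, which is a mean over 4 PREX2 and 2 control arrays: 3 of the 4 had both controls under 100 and passed it through the PREX2 arrays. Without a minimum the counts at 1.5-fold were 57 above and 47 below. LacZ was the nearer control at 643 of the 879 probe sets above and 565 of the 870 below. Swt1, just inside the limit above, read 359.0 on both LacZ and its nearest PREX2 array, and Prcc, just outside, read 211 on both. Man2a1, just inside below, read 3873 on GFP and 3872 with PREX2 wt, and BC052688, just outside, read 1366 on LacZ and with K278*.

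**Figure D1:**
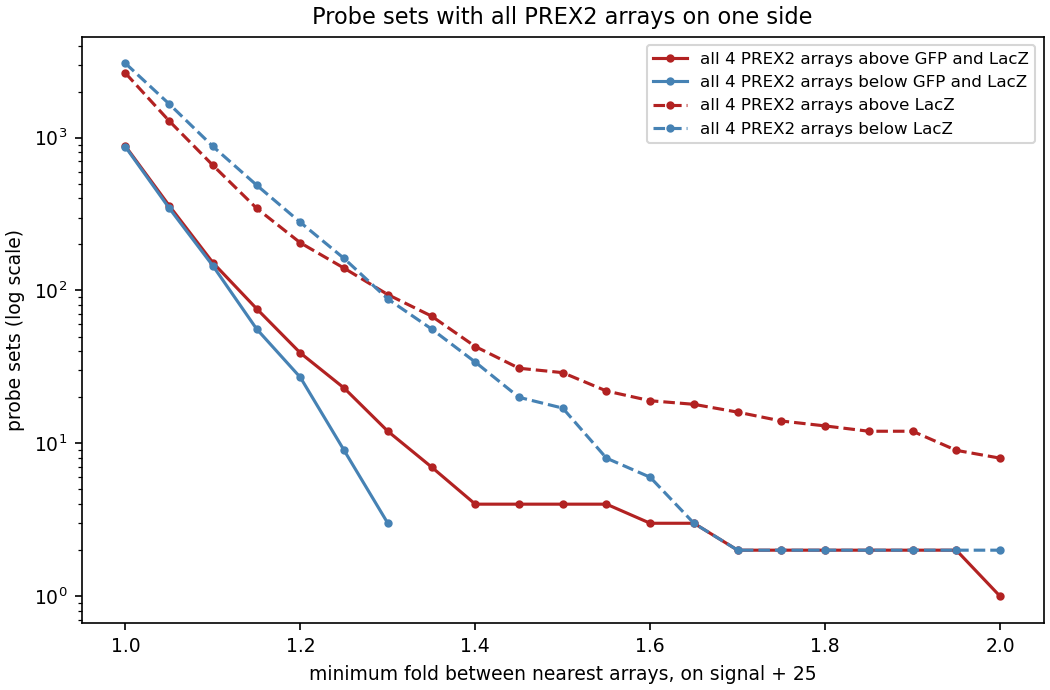
Number of probe sets (log axis) for which all 4 PREX2 arrays lay on one side of the controls, against the minimum fold between the nearest arrays on signal + 25; solid lines use both controls and dashed lines LacZ alone, and a count of 0 is not drawn. From 879 above and 870 below, the counts against both controls drop to 4 and 0 at 1.5-fold, while 29 and 17 remain against LacZ alone.

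Of the 4 probe sets at least 1.5-fold above both controls, named after their values were seen, the second after Oas1a belonged to Agtrap, which encodes a protein that binds the angiotensin receptor. Agtrap read 18.0 on GFP and 36.3 on LacZ against 167 with PREX2 wt, 94.6 with K278*, 247 with E824* and 254 with Q1430*. The PREX2 arrays were all above the controls but spread widely, with K278* lowest. The log2 change was 1.99 (SE 0.37; limma adjusted p = 0.838), and the gene's other tested probe set had a log2 change of -0.01.

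Slc66a2, which encodes a PQ-loop membrane protein, read 308 on GFP and 269.9 on LacZ. The PREX2 arrays gave 525 with PREX2 wt, 499 with K278*, 549 with E824* and 529.5 with Q1430*. The PREX2 arrays formed a narrow group well above both controls, with a log2 change of 0.81 (SE 0.12; limma adjusted p = 0.838) and 0.90 against LacZ alone. Its brighter tested probe set had a log2 change of 0.03, so the separation was seen in 1 of its 2 tested probe sets. The fourth probe set (1443653_at) carries no single gene symbol and read 37.3 and 54.6 on the controls and between 108 and 191 with PREX2.

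Among genes with a brighter-group mean of at least 200, 371 of 8868 (4.18%) lay above both controls, and those with the widest gaps had varied functions. Dhrs3, a retinaldehyde reductase that lowers retinoic acid, read 202 and 214 on GFP and LacZ and 335, 301, 324 and 336 with PREX2 wt, K278*, E824* and Q1430*. Every PREX2 array was above both controls by a similar margin, and the log2 change was 0.58 (SE 0.13), with 0.55 against LacZ alone. Clcn5, an endosomal chloride-proton exchanger, read 1269 and 2003 on GFP and LacZ and 2638, 2666, 2812 and 2985 with PREX2 in the same order. Its groups did not overlap, although the controls differed from each other, and the log2 change was 0.79 against both and 0.46 against LacZ. Of its 4 tested probe sets, the second brightest had a log2 change of 0.07. The brightest belongs to a class of probe sets (suffix x) that may also bind related transcripts.

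Samd5, a sterile alpha motif protein, read 292 and 317 on the controls and between 416 and 641 with PREX2, with K278* highest. Pelo, a ribosome rescue factor, read 369.5 and 398 on the controls and between 515 and 599 with PREX2. Radil, an effector of the GTPase Rap, read 142 and 158 on the controls and between 207 and 253 with PREX2. These 3 genes each had 1 tested probe set, and their log2 changes were 0.65, 0.49 and 0.51 against both controls and 0.60, 0.44 and 0.45 against LacZ. The GFP and LacZ arrays were alike for these genes, and both comparisons gave values near each other.

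The remaining genes of that group were Nudt13 (a Nudix hydrolase), Zfp959 (a zinc-finger protein), Mettl7a2 (a methyltransferase-like protein), Kank1 (an adaptor at focal adhesions), Nkapd1, Sema5a (a semaphorin) and Tasor (a subunit of the HUSH silencing complex). Their log2 changes lay between 0.37 for Nudt13 and 1.01 for Mettl7a2 against both controls, and between 0.35 for Nkapd1 and 0.67 for Mettl7a2 against LacZ. Mettl7a2, read by a probe set of suffix x, varied most among the PREX2 arrays, from 315.5 with PREX2 wt to 610.1 with E824*. The second tested probe sets of Nkapd1 and Sema5a had log2 changes of -0.07 and -0.33. For all 12 genes the limma adjusted p was 0.838 against both controls and 1.0 against LacZ.

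On the lower side, 386 of 8868 such genes (4.35%) had all PREX2 arrays below both controls. Prkx, the catalytic subunit of a cAMP-regulated protein kinase, read 638 on GFP and 503 on LacZ. It read 379 with PREX2 wt, 348 with K278*, 299 with E824* and 337 with Q1430*. All PREX2 arrays were below LacZ, the lower control, and the log2 change was -0.70 (SE 0.15; limma adjusted p = 0.838) against both and -0.53 (SE 0.18) against LacZ. Its second probe set had a log2 change of -0.23 and the dimmest -0.04.

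Zfp64, a zinc-finger transcription factor, read 765 and 695 on GFP and LacZ and 485, 539, 497 and 493 with PREX2 wt, K278*, E824* and Q1430*. Its controls lay near each other and well above the 4 PREX2 arrays, with a log2 change of -0.51 (SE 0.12) against both and -0.45 against LacZ. Tecr, an enoyl-CoA reductase that elongates very long fatty acids, read 2174 and 2238 on the controls and between 1612 and 1782 with PREX2. Tecr had a log2 change of -0.36 (SE 0.10) and its second tested probe set one of 0.12.

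Bcl2, the founding inhibitor of mitochondrial apoptosis, read 535.5 and 446 on the controls and between 254 with Q1430* and 361 with PREX2 wt. The groups did not overlap, and the log2 change was -0.56 (SE 0.18), beside -0.13 for its second tested probe set. Ifrd2 read 426 and 292.5 on the controls and between 206 and 235 with PREX2, with a log2 change of -0.64 against both and -0.38 against LacZ. Pla2g12a, a phospholipase, read 392 and 391 on the controls and between 193.5 and 307 with PREX2.

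The other 6 genes with the widest gaps below were Trmt2a (a tRNA methyltransferase), Mink1 (a Ste20-family kinase), Ankrd11 (a chromatin regulator), Fbxw22 (an F-box protein), Casp14 (a caspase of the epidermis) and Tacc2 (a centrosomal coiled-coil protein). Their log2 changes ran from -0.31 for Ankrd11 to -0.74 for Fbxw22 against both controls and from -0.30 to -0.92 for the same genes against LacZ. Ankrd11 had 6 tested probe sets, whose median log2 change was 0.00, and the brightest of the other probe sets of Trmt2a had one of -0.04. The Casp14 probe set was of suffix x, and the gene's other probe set, not tested, read between 5.99 and 25.1. The limma adjusted p was again 0.838 against both controls and 1.0 against LacZ for all 12 genes.

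**Figure D2:**
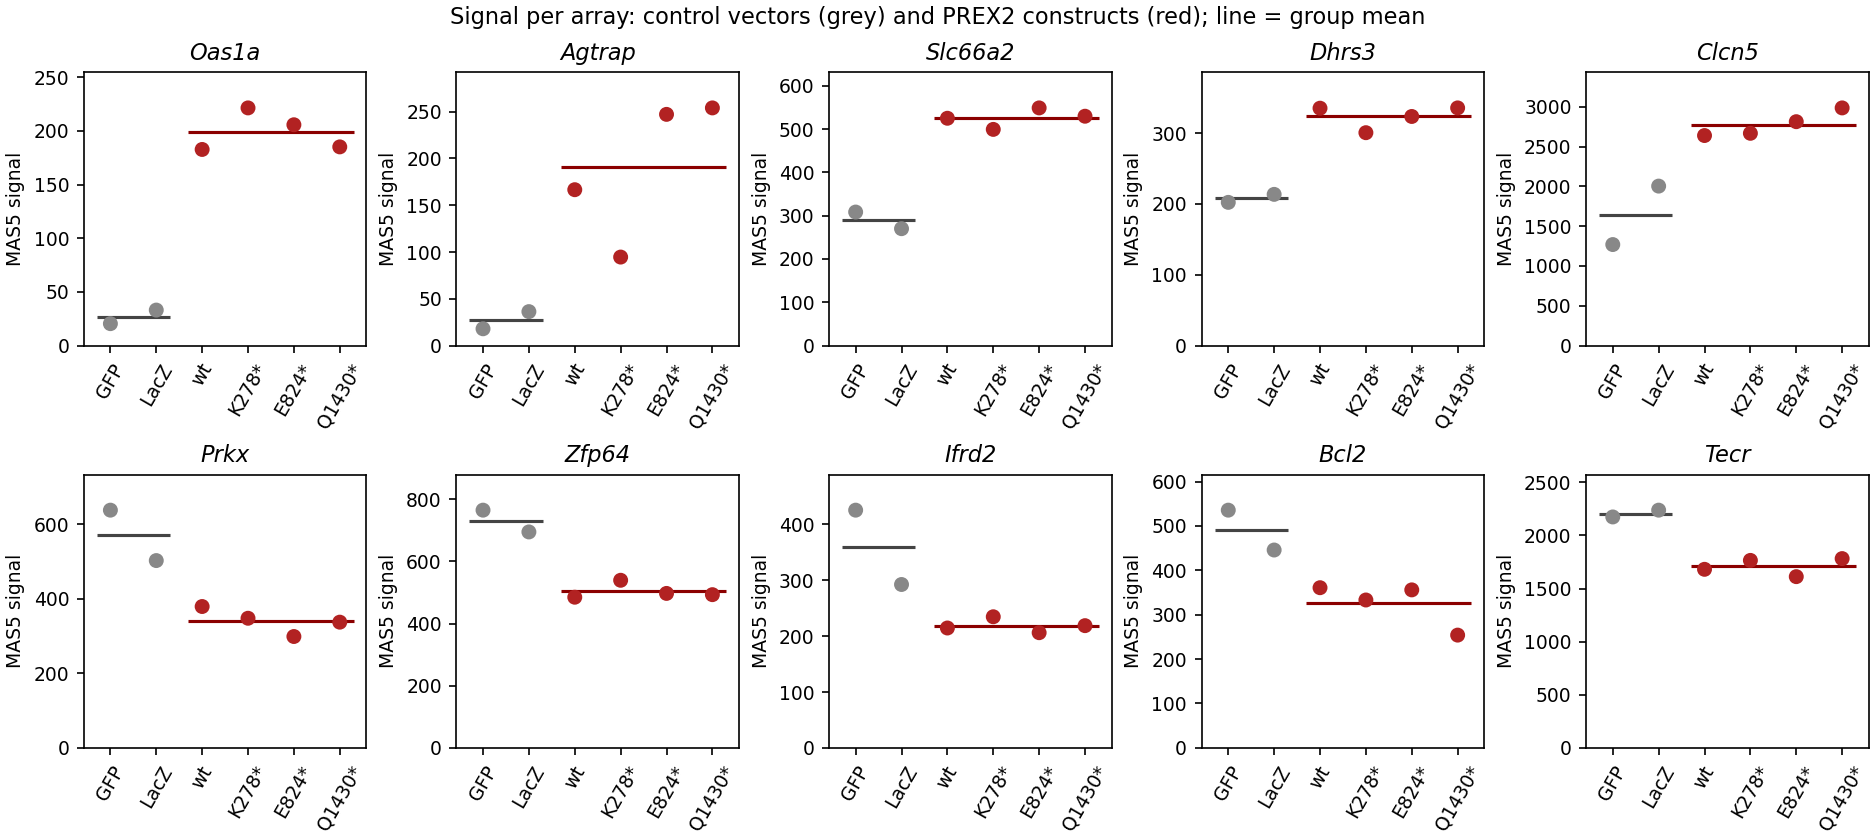
Deposited MAS5 signal (linear axis from 0) on each of the 6 arrays for 5 genes above and 5 below both controls; grey points are GFP and LacZ, red points the PREX2 constructs, and lines the group means. For Oas1a the PREX2 arrays lie between 183 and 221 and the controls at 20.4 and 33.1, while Prkx lies at 503 and 638 on the controls and between 299 and 379 with PREX2.

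Where a gene had several tested probe sets, they rarely placed all PREX2 arrays on the same side. Of the 432 genes above both controls 179 had more than 1 tested probe set; in 17 of these every probe set lay above, and in 104 all had the same sign of log2 change. Of the 449 genes below, 180 had several, 8 lay below with every probe set and 116 kept the sign. Nupr1, a stress-induced chromatin protein, and Cd24a, a surface sialoglycoprotein, were among the 17, and Tbx3, a T-box repressor, was among the 8, named here after their values were seen.

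The genes closest to the expressed protein were described whatever their values. The Prex2 probe set read 452 on GFP, 677 on LacZ, 795 with PREX2 wt, 809 with K278*, 722 with E824* and 703 with Q1430*. All PREX2 arrays were above both controls, by little over LacZ, with a log2 change of 0.43 (SE 0.17; limma adjusted p = 0.838) against both and 0.15 against LacZ. The labels do not give the species of the construct or the part of the transcript that the probe set reads, so it is no check of transgene expression. Prex1, the related exchange factor, was below the minimum signal, with values between 5.18 and 46.5.

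Rac1, the GTPase that PREX2 activates, read 6495 and 5972 on the controls and between 5560.0 and 6055 with PREX2, so the groups overlapped. Akt1 (1552 and 1213 against 1139 to 1271) and the regulatory subunit gene Pik3r1 (919 and 1606 against 1206 to 1574) also overlapped. The FOXO transcription factors, which AKT holds out of the nucleus, overlapped too: Foxo1 read 319.7 and 533.5 on the controls and between 374 and 465 with PREX2. Foxo3 read 1322 on GFP, 829 on LacZ and between 968 and 1546 with PREX2, and thus lay above LacZ on all 4 arrays with a log2 change of 0.60 against LacZ (SE 0.24; limma adjusted p = 1.0). Its second tested probe set had a log2 change of -0.02 against LacZ.

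The cell-cycle genes Cdkn1a, Cdkn1b and Ccnd1 differed between the controls, and the PREX2 arrays lay near or between them. Ccnd1, the D-type cyclin that drives entry into S phase, read 9785 on GFP and 5618 on LacZ, and 8765 with K278* against 4666 to 5744 with the other constructs. K278* lay near GFP and the others near LacZ, so the log2 change was -0.35 against both controls and 0.05 against LacZ. Cdkn1b, a CDK inhibitor and FOXO target, read 1116 on GFP, 2665 on LacZ and between 1977 and 3032 with PREX2, with log2 changes of 0.57 and -0.05. Cdkn1a, the CDK inhibitor induced by p53, had log2 changes of -0.18 and 0.20. The Cdkn1c probe set was below the minimum signal.

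Of the 32 measured genes in the PI3K and AKT list, 0 passed the limma test; 2 lay above both controls and 2 below, beside 4.30% and 4.47% of all genes. Tsc2, a brake on mTORC1, read 288 and 301 on the controls and between 317 and 524 with PREX2, with Q1430* highest. Inpp4a, a phosphoinositide phosphatase, read 289 and 344 on the controls and between 223 and 284 with PREX2. Pik3r2 (log2 change 0.23) and the mTOR complex subunit Mlst8 (-0.27) lay just outside the controls. The median log2 change of the list was 0.01 against both controls and 0.00 against LacZ, beside 0.01 and -0.01 over all genes.

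Of 37 measured exchange factors, regulators and effectors of Rac, 0 passed. Above both controls lay 2 (Prex2 and Srgap2) and below both 1 (Tiam2), beside 4.30% and 4.47% of all genes. Srgap2, a GTPase-activating protein for Rac, read 717 and 701.5 on the controls and between 773 and 947 with PREX2. Tiam2, a Rac exchange factor, read 276.5 and 254 on the controls and between 178 and 241 with PREX2. The median log2 change was -0.06 against both controls and -0.03 against LacZ. Against LacZ alone, 3 lay above and 8 below, beside 13.2% and 15.8% of all genes.

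Of 30 measured interferon-stimulated genes, 0 passed and 3 lay above both controls, beside 4.30% of all genes: Oas1a and the class I antigen-presentation genes H2-K1 and H2-D1. H2-K1 read 1199 and 1267 on GFP and LacZ and 1603, 1908, 1696 and 1519 with PREX2 wt, K278*, E824* and Q1430*. Each PREX2 array was clear of the controls, with log2 changes of 0.44 (SE 0.12) and 0.40 against LacZ. H2-D1 read 1366 and 1780.0 on the controls and between 1901 and 2490.0 with PREX2, with log2 changes of 0.46 and 0.27. Both genes were read by probe sets of suffix x, and class I genes resemble each other in sequence, so their signals may be shared. H2-K1 had 2 tested probe sets and H2-D1 had 4. For neither gene did every tested probe set lie above both controls. The list's median log2 change was 0.60 against both controls, with 29 of 30 members positive, but 0.06 against LacZ, with 21 positive. The mean level of the list was lower on GFP than on LacZ by a log2 difference of -1.17, and relative to LacZ the PREX2 arrays ran from -0.18 with K278* and -0.15 with PREX2 wt to 0.35 with Q1430* and 0.51 with E824*, on both sides of LacZ.

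The lists of proliferation genes behaved in the same manner with the opposite sign. Of 36 measured G1/S and DNA replication genes, 0 passed and 0 lay on one side of both controls. Over all genes 4.30% lay above and 4.47% below. A positive log2 change against both controls was found for 0 of the 36, and the median was -0.38. Against LacZ alone 19 of the 36 were positive and the median was 0.01. The mean level was above LacZ on GFP (0.79), K278* (0.49) and PREX2 wt (0.07) and below it on Q1430* (-0.15) and E824* (-0.35). For 37 G2/M genes the medians were -0.27 and -0.01, and for 25 ERK-output and immediate-early genes -0.16 and 0.04. In that last list Atf3, a stress-induced transcription factor, was the only member above both controls, beside 4.30% of all genes. It read 258 and 297 on the controls and between 300.5 and 327 with PREX2.

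The medians of matrix genes and of insulin-like growth factor binding proteins also had opposite signs against both controls and against LacZ. Of 43 extracellular matrix genes, 0 passed, 1 lay above both controls (the laminin gene Lamc1) and 2 below (the collagen Col8a1 and the fibulin Fbln2), beside 4.30% and 4.47% of all genes. The median log2 change was 0.17 against both controls, with 32 members positive, and -0.13 against LacZ, with 10 positive. Against LacZ alone 13 of 43 lay below on all 4 arrays, among them Col1a1, Col1a2 and Col3a1, the main fibrillar collagens, beside 15.8% of all genes. The 18 fibroblast markers, which share collagen genes with that list, had medians of 0.20 and -0.10, and 6 lay below LacZ on all PREX2 arrays. Their mean level relative to LacZ was -0.49 with K278* and 0.06 with E824*. Of 8 insulin-like growth factor binding proteins, whose products bind IGF outside the cell, the medians were 0.41 and -0.13. Igfbp6 was the 1 member above both controls, beside 4.30% of all genes. It read 8821 and 8790.0 on the controls and between 9072 and 9790.0 with PREX2. The 17 imprinted genes had medians of 0.26 and -0.02, with 0 members outside both controls, beside 4.30% above and 4.47% below over all genes.

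**Figure D3:**
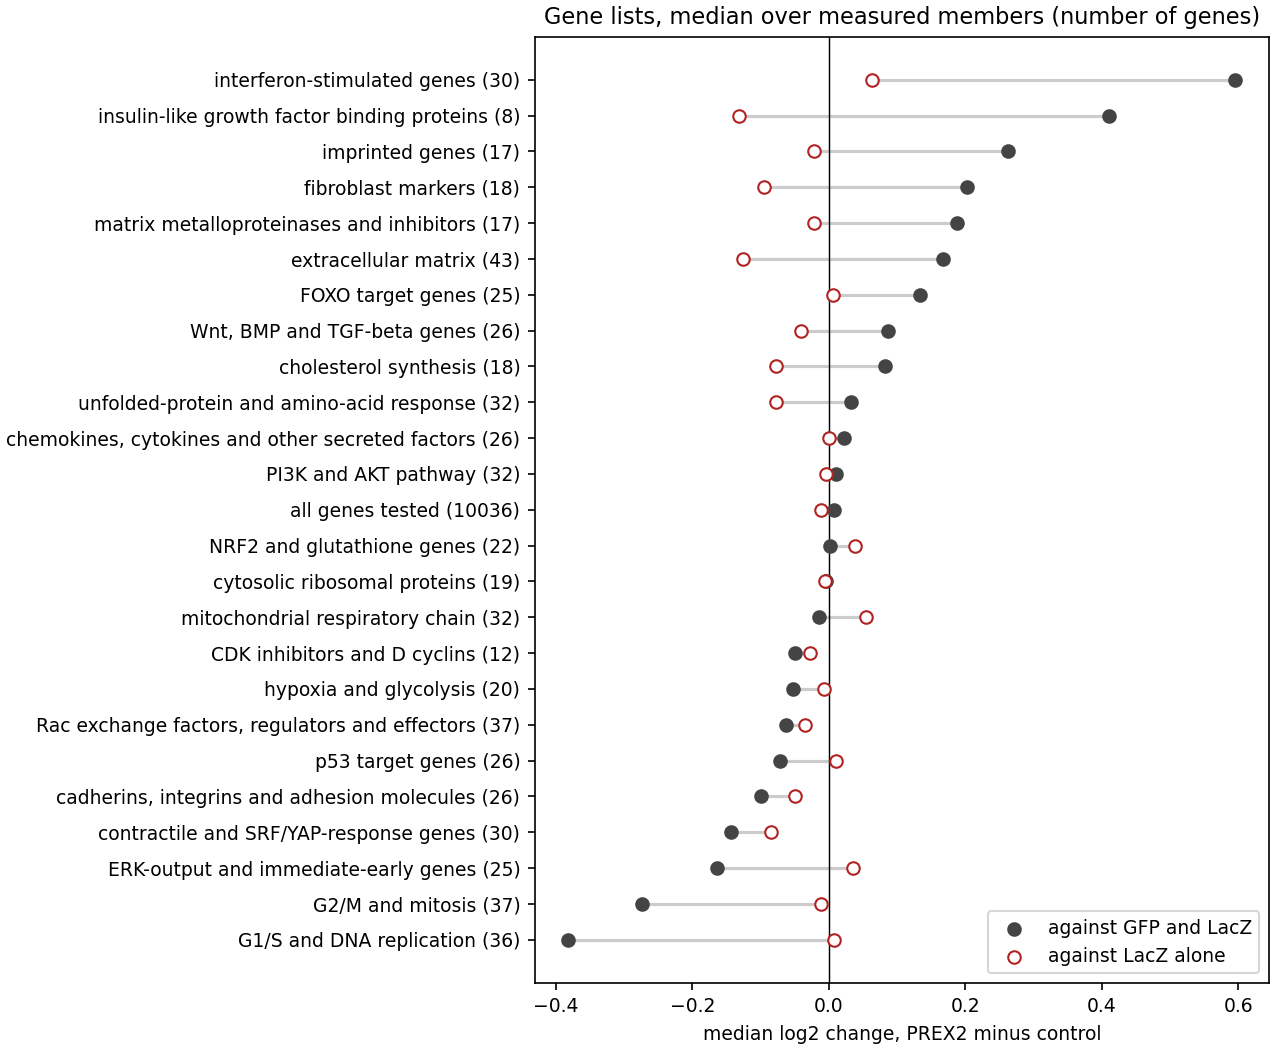
Median log2 change, PREX2 minus control, over the measured members of the 23 pathway lists, the fibroblast markers and all genes (number of genes in brackets); filled points are against GFP and LacZ together and open points against LacZ alone. Interferon-stimulated genes move from 0.60 to 0.06 and G1/S genes from -0.38 to 0.01 when GFP is left out, while the PI3K and AKT list stays at 0.01 and 0.00.

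**Figure D4:**
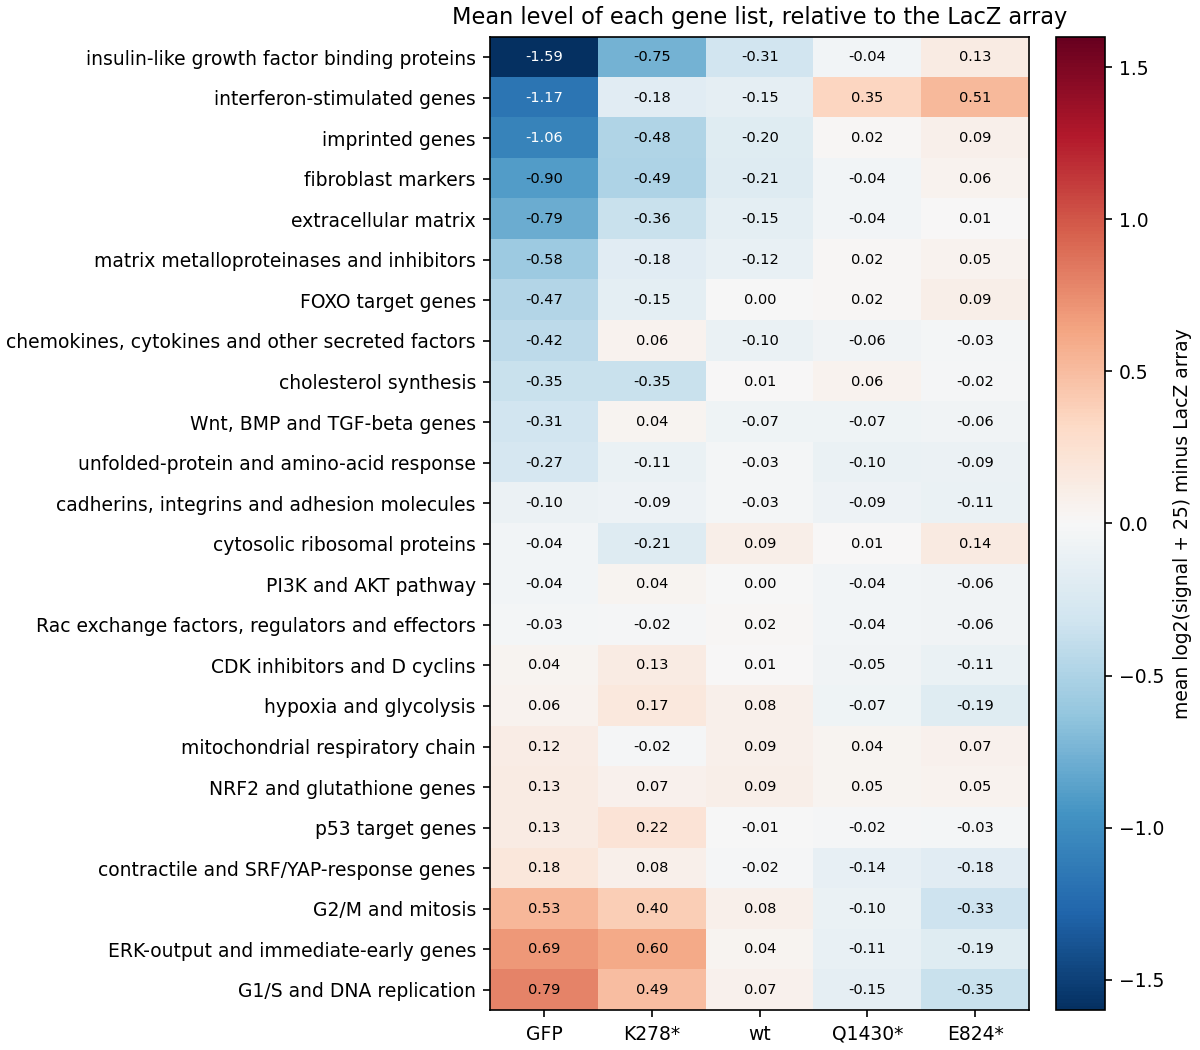
Mean log2(signal + 25) of the 23 pathway lists and the fibroblast markers on 5 arrays relative to the LacZ array, with lists ordered by their level on the GFP array (colour scale from -1.6 to 1.6). Over the lists drawn, GFP runs from -1.59 for insulin-like growth factor binding proteins to 0.79 for G1/S genes, and K278* follows it in direction in both lists with -0.75 and 0.49.

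Cytoskeletal genes were below both controls at 3 of 30 members of the contractile and SRF/YAP list (beside 4.47% of all genes), with 0 above (4.30%) and 0 passing. Myl9, a regulatory myosin light chain, read 3317 and 3206 on GFP and LacZ and 2958, 2562, 2448 and 2656 with PREX2 wt, K278*, E824* and Q1430*. All PREX2 arrays were lower, PREX2 wt the least, with log2 changes of -0.30 (SE 0.11) and -0.27 against LacZ. Vinculin (Vcl) and calponin Cnn2, which link and steady actin, had log2 changes of -0.20 and -0.09. Vcl and Cnn2 lay just outside the controls, with gaps of 0.028 and 0.005, beside 0.115 for Myl9. The list median was -0.14 against both controls and -0.08 against LacZ. Integrin subunits Itga5 (223.6 on average on the controls against 138 with PREX2) and Itgb5 (2581 against 2354) lay below both controls among 26 adhesion genes, beside 4.47% of all genes.

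Few stress and redox genes lay outside both controls. Among 22 NRF2 and glutathione genes, 1 (Mt2) lay above and 0 below, beside 4.30% and 4.47% of all genes. Mt2, a metallothionein that binds zinc and copper, read 556 on GFP and 1001 on LacZ and 1456, 1233, 1169 and 1277 with PREX2 wt, K278*, E824* and Q1430*. The PREX2 arrays were all above LacZ, the higher control, and the log2 change was 0.76 (SE 0.22; limma adjusted p = 0.838) against both and 0.35 (SE 0.16) against LacZ. Of 32 unfolded-protein and amino-acid response genes, 2 lay above both controls (Atf3 and Nupr1) and 1 below, near the 4.30% and 4.47% of all genes. The 1 below was Calr, a calcium-binding chaperone of the endoplasmic reticulum, which had log2 changes of -0.26 and -0.36 against LacZ. Of 26 chemokines, cytokines and other secreted factors, 2 lay above both controls and 0 below, beside 4.30% and 4.47% of all genes. Their median was 0.02 against both and 0.00 against LacZ. Angpt1, a ligand of the Tie2 receptor, read 232 and 235 on the controls and between 269.9 and 339 with PREX2, and the chemokine Ccl9 had log2 changes of 0.31 and 0.17. Single members also lay above both controls among 26 p53 targets (Ddb2, log2 change 0.39) and 26 Wnt, BMP and TGF-beta genes (the receptor Tgfbr1, 0.17). The same held for 17 metalloproteinases and inhibitors (Adam19, 0.09) and 32 respiratory chain genes (Uqcrc2, 0.18). These counts stand beside 4.30% of all genes. Klf6 (-0.15), 1 of 25 FOXO targets, lay below, beside 4.47% of all genes. None of the 19 cytosolic ribosomal protein genes lay outside both controls or on one side of LacZ, and their median was 0.00 in both comparisons. Over all genes 4.30% lay above and 4.47% below both controls, and 13.2% above and 15.8% below LacZ.

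Against LacZ alone, 29 probe sets had all PREX2 arrays at least 1.5-fold above (0.155%) and 17 below (0.0912%), again with no probe set passing in limma. Ufm1, a ubiquitin-like modifier, had the smallest adjusted p together with Oas1a (0.289 in limma). Its probe set read 28.5 on LacZ but 171 on GFP and between 201 and 275.5 with PREX2. The LacZ array was thus the low one, and the brightest other probe set of Ufm1 had a log2 change of 0.13. Capg and Gsn, actin-capping proteins, showed the same pattern, with LacZ at 33.8 and 18.3, GFP at 151.5 and 111.0, and log2 changes of 1.82 and 2.31. Their brightest other probe sets had 0.13 and 0.06. On LacZ the probe sets of Ufm1, Capg and Gsn read under the minimum mean signal of 100. They entered the test only through other arrays, where they were higher, so a difference from LacZ was a condition of their being tested. The split at 1.5-fold depended on that minimum: without it 351 probe sets lay above LacZ and 543 below.

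Alcam, an adhesion molecule of the immunoglobulin family, differed from LacZ in each of its 4 tested probe sets, with log2 changes between 0.44 and 0.94. The probe set with the largest difference read 228 on LacZ, 1204 on GFP and 500, 572, 420.5 and 375 with PREX2 wt, K278*, E824* and Q1430*. All PREX2 arrays lay between the controls, so against both together the log2 change was -0.20. Tcl1b3 read 2482 on LacZ, 601 on GFP and between 544 and 990 with PREX2, a log2 change of -1.68 (SE 0.29; limma adjusted p = 1.0) against LacZ and -0.67 against both. For Tcl1b3, too, the LacZ array was the one apart. Fbxw22 and Slc66a2 were at least 1.5-fold from LacZ and also on the same side of GFP. So were Oas1a, Agtrap, Ufm1 and, by little, Capg, among others.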

How the data were processed

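Per the labels' protocols, labelled cRNA was made from total RNA by in vitro transcription from the 3' end for Affymetrix mouse arrays. The authors deposited linear intensity values, which the submitters' processing notes call MAS5, with no version given. With 2% trimmed at either end, every array had a mean of 500.0. Of 45101 probe sets 64 controls were left out. The platform annotation gave 34945 of the remaining 45037 a single gene symbol, which alone were used to name genes; 932 had several and 9160 had no symbol.

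Signals were transformed as log2(signal + 25). The 18650 probe sets (10036 genes) with a mean of at least 100 over the 6 arrays were fitted with 2 group means and an intensity trend (limma 3.58.1 in R 4.3.3), leaving 4 residual degrees of freedom, or 3 against LacZ alone, where the lone LacZ array was assumed to vary like the PREX2 arrays. P-values are two-sided and adjusted by Benjamini-Hochberg over all probe sets. The 15 arrangements of 4 and 2 arrays allow an exact two-sided permutation p of no less than 0.133, so none was used. The fit was also run on simulated arrays with known changes. In these the GFP and LacZ arrays had the same mean, unlike the measured ones. The simulation therefore does not show how the difference between the controls bears on the test. Unless stated, a gene is represented by its brightest tested probe set.

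The genes named were the 12 with the widest gap on each side with a brighter-group mean of at least 200, up to 4 members per list outside both controls, 11 fixed genes, and the genes beside a gap of 0; 31 lists (8 of them cell markers) were counted. Genes at least 1.5-fold from both controls or from LacZ were named after their values were seen. The members and lists were chosen with earlier results of these data known. Alternatives used offsets of 5 and 100, a minimum of 200 or no minimum, quantile normalization, all 9 arrays, no trend, all probe sets of a gene, and each array left out.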

Additional observations from a re-analysis of the deposited data

Results flagged for a closer look

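In 3 of the named genes 1 PREX2 array lay far from the other 3, by Dixon's criterion at the 95% level for a group of 4; chance marks about 1 in 20 groups, and many genes were examined. Ankrd11, a chromatin regulator, had its lowest value with K278*, at 1119, while the others lay between 1215 and 1234. Srgap2, the GTPase-activating protein for Rac, had its highest value with Q1430*, at 947, against 773 to 784 on the others; all 4 were above the controls. Foxo1 had its lowest value with K278*, at 374, against 449.5 to 465.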

How the results depend on the processing

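No paired analysis was possible because the labels give the arrays no replicate numbers. No probe set passed in limma against both controls under the main setting; 1 (Oas1a) passed with all 9 arrays in the fit and 1 without the intensity trend, and 1 passed against LacZ with all 9 arrays. Without any filter, 2363 probe sets lay above and 3007 below both controls, with 57 and 47 at 1.5-fold, and 351 above and 543 below LacZ at 1.5-fold. At 1.5-fold above both controls 1 remained with an offset of 100 and 1 with a minimum of 200; below both, 1 was found with all 9 arrays. For LacZ an offset of 100 left 10 above and 2 below, a minimum of 200 left 7 and 4, and quantile normalization left 11 below.

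Leaving out 1 array at a time gave 0 to 218 passing probe sets against both controls and 0 to 0 against LacZ; the 218 came without LacZ, when GFP alone was the control. Counts above both controls ran from 1100 to 6363 and below from 1106 to 5811 (at 1.5-fold, 5 to 926 and 1 to 238), and on the LacZ side at 1.5-fold from 38 to 44 above and 24 to 30 below. Fewer arrays leave fewer conditions to meet, so these counts are larger by construction; above both controls they were 2635 without GFP, 6363 without LacZ, 2227 without K278* and 1342 without PREX2 wt, and below 3070, 5811, 2117 and 1224.

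Log2 changes turned sign for Swt1 (-0.035) and Ankrd11 (0.002) over all probe sets. Leaving out arrays turned it for Akt1 (-0.33 to 0.016; against LacZ -0.001 to 0.051), Ccnd1 (-0.75 to 0.049; -0.15 to 0.15), Cdkn1a (-0.57 to 0.20), Cdkn1b (-0.053 to 1.18; -0.13 to 0.072), Foxo1 (-0.28 to 0.42), Foxo3 (-0.062 to 0.60) and Pik3r1 (-0.20 to 0.59). The cause was not tested. Signals near background, as for Oas1a on the controls, limit how firmly a fold can be given.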
